A study of Populus deltoides x Populus x canadensis with 6 samples.

Results

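The genes described here are 42 neighbours near the start of chromosome 10 of poplar, in identifier order. They were taken from the 1835 genes of that chromosome that passed a filter on low counts, out of 27382 such genes and 35792 rows in the table. Sorted by identifier, they stand at positions 46 to 87. Positions 56 to 77 form a run of 22 genes that had been picked because nearly all were higher in the mutant, and 10 genes on each side were kept as flanks. The difference between the genotypes therefore chose the run and set its ends, and every fold change of a member below is a description of that choice, not evidence for it. For the same reason no p-value of a member is printed, and calls and intervals of members are given as descriptions.

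RNA of the woody stem was sequenced from the hybrid poplar Nanlin 895 in 6 libraries, 3 of the wild type (WT in the labels) and 3 of a line labelled pdbri1-1;2;3;6. Both genotypes were 45 days old and grew in the same greenhouse regime of 16 h light and 8 h dark, with no treatment named for either. Each library came from the lowest 2 cm of the defoliated stems of 30 plants pooled together, so a library is a pool and not a plant. Which method made the mutations, and whether the line is a single clone, is not stated in these sources. The table names no gene beyond its identifier, so the mutated receptor genes and the markers of stem tissue were not analysed here. Total counts per library ran from 17752822 to 21096052.

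BRI1 is a receptor kinase at the cell surface that binds brassinosteroids, which are plant steroid hormones. In Arabidopsis, this binding sets off a kinase relay that ends at transcription factors of the BZR1 family, which raise some genes and lower others. Neighbouring plant genes can share an expression pattern for several reasons, among them origin as tandem copies, a shared state of chromatin, or a shared number of copies of the segment. Near-identical tandem copies also share sequencing reads, which makes the values of single copies uncertain. No sequence or function of a member was used here, so none is given a role, and whether members are copies of each other was not analysed. In whole stem tissue, fewer cells of a type and less RNA per cell cannot be told apart.

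The stretch was a mixture of strong and weak differences, and the strong ones belonged mostly to genes that were barely counted in the wild type stem. A gene is called below when its Benjamini-Hochberg adjusted p over all tested genes was under 0.05 in edgeR's quasi-likelihood test. Of the 22 run genes, 20 were called higher and 2 lower in the mutant, where 33.1% of all tested genes were called higher and 31% lower. By at least 2-fold, 15 run genes were called higher, against 13.5% of all tested genes and 12.1% of those on chromosome 10. The run had a median log2 fold change of 2.17, with quartiles of 0.59 and 2.84, while the median of all tested genes was 0.01. The 20 flanking genes had a median of -0.20, with 5 called higher, 11 called lower and 4 not called, that is 16 called in either direction against 64.1% of all tested genes. With libraries scaled by their totals, a setting that moved the median of all genes from 0.01 to 0.13, 6 flanking genes were called higher and 6 lower, and the run kept its split of 20 higher and 2 lower.

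**Figure D1:**
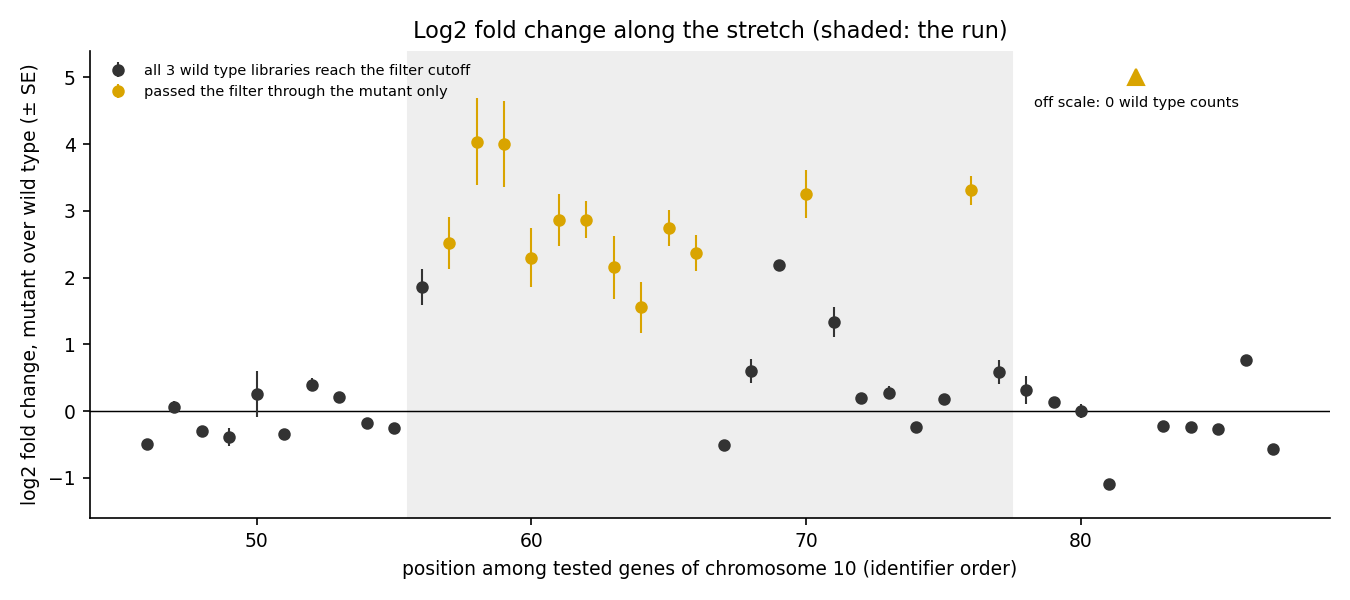
Log2 fold change (mutant over wild type) of the 42 genes by their position among the tested genes of chromosome 10, in identifier order. Error bars are SE of the fit over 3 libraries per genotype. Shading marks the run at positions 56 to 77. Of its 15 genes higher by at least 2-fold, 12 (yellow) reached the cutoff of the count filter in all mutant but not all wild type libraries. The triangle is a flanking gene with 0 wild type counts.

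The filter on low counts bears on the run directly. A gene was kept when 3 libraries reached 0.516 CPM (the count scaled to a common library total, here of the libraries as deposited), so a gene under that level in all wild type libraries was kept only if it was high in the mutant, and then had to differ. In the run, 12 of 22 genes (54.5%) reached the cutoff in all mutant libraries but not in all wild type libraries, against 1 of the 20 flanking genes and 6.2% of all tested genes. Such genes are said here to have passed through the mutant only or alone, though some had wild type libraries at the cutoff, only not all of them. Of the 10 run genes whose wild type libraries all reached the cutoff, 8 were called higher, 3 of them by at least 2-fold, and 2 were called lower. Their median log2 fold change was 0.43. Among all 25403 tested genes that met the cutoff in the wild type, 9.27% were called higher by at least 2-fold.

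Positions 56 to 66, a division made after the values were seen, held only genes of low wild type level. All 11 genes there were called higher by at least 2-fold, and in each gene no wild type library reached any mutant library, a pattern shared by 34.5% of all tested genes and by 70.7% of the tested genes with levels as low in the wild type. Their mean wild type levels lay between 0.052 and 0.788 CPM. Potri.010G010600.v4.1 (0.248 CPM) and Potri.010G011400.v4.1 (0.648 CPM), later in the run, also lay in that range. Of the 2148 tested genes with a mean wild type level no higher than 0.788 CPM, 65.2% were called higher by at least 2-fold, and their median log2 fold change was 1.67 against 2.53 for these 11 genes. Summed over the 11 genes, the wild type libraries held 71, 77 and 72 counts and the mutant libraries 509, 411 and 380. The sum was thus low and steady in the wild type and several times higher in each mutant library.

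The first gene of the run, Potri.010G007866.v4.1 (703 bp), was counted 19, 14 and 11 times in wild type libraries against 71, 49 and 48 times in mutant libraries. It was the only gene of positions 56 to 66 that met the filter cutoff in all wild type libraries, and its log2 fold change was 1.86 (SE 0.27). Potri.010G008020.v4.1 (541 bp) had the highest mutant level of these 11 per length (7.27 FPKM, counts per gene length and library total), with 9, 7 and 13 wild type counts and 71, 86 and 65 mutant counts, or 0.508 ± 0.144 against 3.78 ± 0.77 CPM (SD, n = 3 each). Its log2 fold change was 2.87 (SE 0.27). Potri.010G010416.v4.1 (476 bp) had 16, 10 and 10 counts against 82, 61 and 54, a log2 fold change of 2.37 (SE 0.27). In all 3 genes the lowest mutant library stood well above the highest wild type library.

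The largest fold changes in the run belonged to a pair of genes with almost no wild type counts. Potri.010G007954.v4.1, the shortest member at 231 bp, was counted 1, 0 and 2 times in the wild type against 17, 28 and 12 times in the mutant. Its ratio of scaled summed counts was 18.3, with a 95% exact interval of 5.94 to 91.1 that covers counting error only. Potri.010G007976.v4.1 (501 bp) was counted 1, 2 and 0 times against 29, 11 and 16, a ratio of 17.9 (95% exact interval 5.83 to 89.6). Both intervals span more than a factor of 10, so the order of these genes among the others is not fixed by the data.

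Potri.010G007932.v4.1, the next gene inside the near edge of the run, had 5, 7 and 3 counts against 37, 23 and 32. The naming rule left out 6 genes of positions 56 to 66, Potri.010G007976.v4.1 above among them, and these were added after their values were seen, to complete the group. Potri.010G007987.v4.1 had 3, 4 and 5 counts against 22, 17 and 24. Potri.010G008009.v4.1 had 4, 6 and 3 against 37, 36 and 28. These 3 genes have lengths of 515, 480 and 511 bp and lay close together in both genotypes, with wild type means of 0.209 to 0.266 CPM and mutant means of 1.06 to 1.71 CPM.

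Potri.010G008042.v4.1 (939 bp) had 2, 6 and 4 wild type counts and 26, 21 and 10 mutant counts. Potri.010G010400.v4.1 (1003 bp) had 6, 12 and 13 against 88, 55 and 76. The smallest fold change of the 11, a log2 value of 1.55 (SE 0.39), was that of Potri.010G009750.v4.1, with 5, 9 and 8 counts against 29, 24 and 15. It was also the longest of them, at 1965 bp.

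Pooled over positions 56 to 66, the mutant stood 5.68-fold above the wild type, and the ratios of single genes ran from 2.97 to 18.3. These ratios describe genes chosen for being higher, of which 10 of 11 passed the filter only through the mutant, so nothing is read from their size or likeness.

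**Figure D2:**
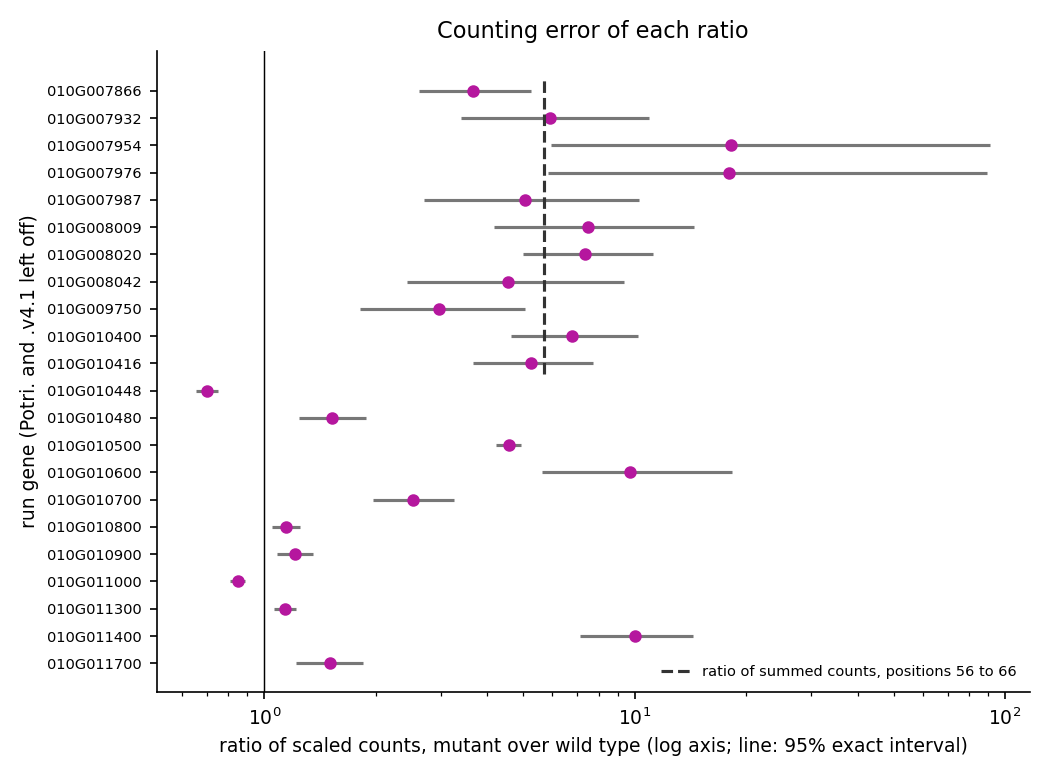
Ratio of scaled summed counts, mutant over wild type (log axis), for the 22 run genes, with 95% exact intervals for counting error. The dashed line is the pooled ratio of positions 56 to 66 (5.68), drawn as a description; the vertical line at 1 marks equal levels, and 2 genes lie below it.

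Positions 67 to 77 were of another kind, with well counted genes that differed little standing beside a few that differed strongly. Here 9 of 11 genes were called higher and 2 lower, against 33.1% and 31% of all tested genes. By at least 2-fold, 4 were called higher, against 13.5% of all tested genes. The median log2 fold change was 0.58. The run was chosen for being higher, so these counts are descriptions. Only 2 of the 11 entered the filter through the mutant alone. The median wild type level was 10.02 CPM, against 0.266 CPM at positions 56 to 66 and 14.7 CPM over all tested genes.

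Potri.010G010500.v4.1, at position 69, was the only run gene above 2 CPM in the wild type that was called higher by at least 2-fold. Wild type libraries held 224, 257 and 288 of its counts and mutant libraries 1334, 1125 and 1196, or 13.05, 13.1 and 14.3 against 61.4, 60.9 and 62.6 CPM. The libraries of each genotype lay close together and far from those of the other. The level rose 4.57-fold, a log2 fold change of 2.19 (SE 0.06), and per length it went from 8.61 to 42.9 FPKM. Its wild type level stood at the 47.8th percentile of the tested genes, far above the filter cutoff. Leaving out any 1 library gave log2 fold changes between 2.17 and 2.23.

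Next to it, Potri.010G010600.v4.1 (1070 bp, position 70) held 5, 4 and 5 wild type counts and 47, 40 and 55 mutant counts, a log2 fold change of 3.25 (SE 0.35). This gene passed the filter through the mutant alone and was added after its values were seen. Potri.010G010700.v4.1 (1239 bp, position 71) rose less, from 17, 32 and 40 counts to 69, 69 and 95, a log2 fold change of 1.34 (SE 0.22). Its wild type libraries were uneven, at 0.990, 1.63 and 1.98 CPM.

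Potri.010G011400.v4.1, at position 76 near the far edge, had the largest fold change of positions 67 to 77. Its 11, 10 and 16 counts stood against 141, 120 and 124, or 0.648 ± 0.141 against 6.49 ± 0.01 CPM (SD, n = 3 each), a log2 fold change of 3.31 (SE 0.22). The mutant libraries were nearly equal after scaling. It too reached the filter cutoff in all mutant libraries but not in all wild type libraries. The 3 genes before it in the run, described next, stood at only 1.21, 0.848 and 1.14 times the wild type.

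The remaining run genes called higher rose by less than 2-fold. Potri.010G010800.v4.1 went from 17.4 ± 0.6 to 19.8 ± 1.6 CPM, Potri.010G010900.v4.1 from 10.02 ± 0.31 to 12.1 ± 1.0 CPM, and Potri.010G011300.v4.1 from 27.1 ± 1.3 to 30.9 ± 0.5 CPM (SD, n = 3 each). Their log2 fold changes were 0.19, 0.28 and 0.19, and these calls were the least secure of the run. DESeq2 called none of these 3. Without wild type replicate 2 or mutant replicate 3 the first 2 were not called, without wild type replicate 3 or mutant replicate 1 the first was not called, and without wild type replicate 1 the third was not called. Potri.010G010480.v4.1 (position 68), also added after its values were seen, had 51, 53 and 46 counts against 95, 80 and 63, and Potri.010G011700.v4.1, the last gene of the run, 57, 46 and 52 against 87, 78 and 77. Their log2 fold changes were 0.60 (SE 0.19) and 0.58 (SE 0.18).

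A pair of run genes went the other way. Potri.010G010448.v4.1 (2938 bp, position 67) fell from 39.0, 35.9 and 36.8 CPM to 25.6, 28.2 and 24.4 CPM, a log2 fold change of -0.51 (SE 0.06). Potri.010G011000.v4.1 (1279 bp, position 74) had the highest wild type level of the run per length (50.8 FPKM), with 67.2, 70.7 and 65.7 CPM in the wild type and 55.9, 57.7 and 59.2 CPM in the mutant, a log2 fold change of -0.24 (SE 0.05). In both genes every mutant library lay below every wild type library, as in 32.6% of all tested genes, and both were called lower with each scaling tried. They stand inside the run among genes that were higher, and why they differ from these was not tested.

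**Figure D3:**
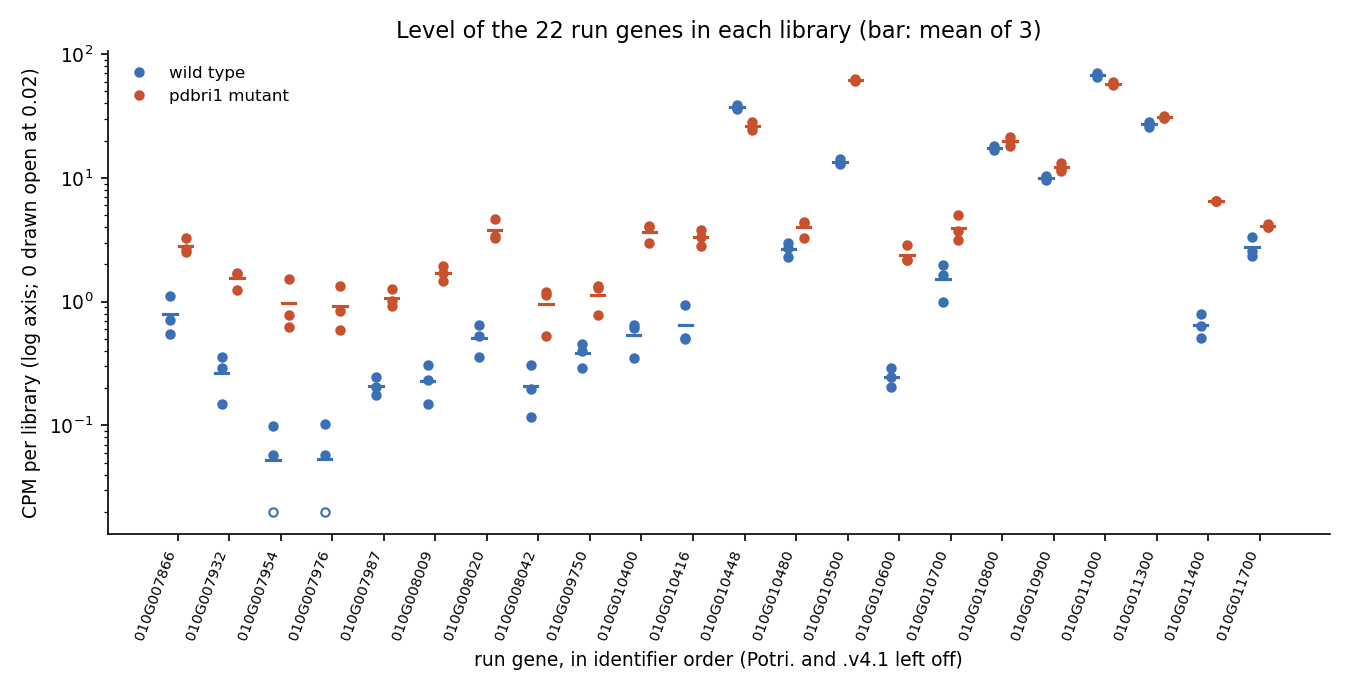
CPM of the 22 run genes in each of the 6 libraries (log axis, bars are means of 3 libraries, counts of 0 drawn open at the bottom). In 20 genes every mutant library lies above every wild type library, and in Potri.010G010448.v4.1 and Potri.010G011000.v4.1 every mutant library lies below. Over all tested genes the shares are 34.5% above and 32.6% below, and 70.7% of those at or below 0.788 CPM in the wild type lie above.

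Summed over the run, the levels reflect little of the many large fold changes, most of which belong to genes of few counts. The 22 genes together took 185, 186 and 183 CPM in the wild type libraries and 248, 251 and 254 CPM in the mutant libraries. Positions 56 to 66 supplied 3.57 to 4.14 CPM of this in the wild type and 19.9 to 23.4 CPM in the mutant. Potri.010G010500.v4.1 alone went from about 13.5 to 61.6 CPM, more than the 11 genes of positions 56 to 66 together.

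The edges of the run differed in sharpness. The last genes before it, Potri.010G007000.v4.1 and Potri.010G007200.v4.1, had log2 fold changes of -0.18 (SE 0.06) and -0.25 (SE 0.06), and the first gene inside stood at 1.86. Both calls on these outer genes were lost when libraries were scaled by their totals, and the levels of the first overlapped, at 63.1, 53.5 and 57.1 CPM against 48.4, 56.4 and 48.5 CPM. At the far edge the last gene inside stood at 0.58, and Potri.010G011800.v4.1 and Potri.010G011900.v4.1 outside it at 0.31 (SE 0.21, not called) and 0.13 (SE 0.04). Between the genes on either side of the border, the change was thus large at the near edge and small at the far edge. Potri.010G011400.v4.1, next to last in the run, stood at 3.31. These fold changes had themselves set the ends, so the sharpness of an edge is a description only.

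Most flanking genes were well counted and differed modestly. Of the 20, 19 met the filter cutoff in the wild type, and leaving aside the 2 genes described next, log2 fold changes lay between -0.56 and 0.76. Potri.010G006800.v4.1 (position 53) was abundant, at 507 ± 20 CPM against 590 ± 23 CPM in the mutant (SD, n = 3 each), a log2 fold change of 0.22. Potri.010G012700.v4.1 (position 83) stood at 32.0 ± 1.3 against 27.4 ± 1.4 CPM.

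A pair of flanking genes differed by more than 2-fold, in opposite directions and side by side. Potri.010G012100.v4.1 (position 81) was the most abundant of the 42 genes per length (2103 FPKM in the wild type) and fell from 2570, 2502 and 2565 CPM to 1133, 1192 and 1265 CPM. The groups were far apart, and the fall of 2.13-fold (log2 fold change -1.09, SE 0.03) became a log2 fold change of -0.97 with library totals, just under 2-fold. Its neighbour Potri.010G012400.v4.1 (912 bp, position 82) was counted 0 times in each wild type library and 517, 280 and 336 times in mutant libraries. With an assumed floor of 3 counts over the wild type group, the mutant stood 363-fold above that floor. The 95% exact lower limit from counting error, which is stricter, was 295-fold. With the same floor over fewer libraries the ratio to the floor was 238-fold without wild type replicate 2 and 234-fold without wild type replicate 3. This gene lies 5 positions beyond the run and belongs to the genes of the series counted in the mutant alone.

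**Figure D4:**
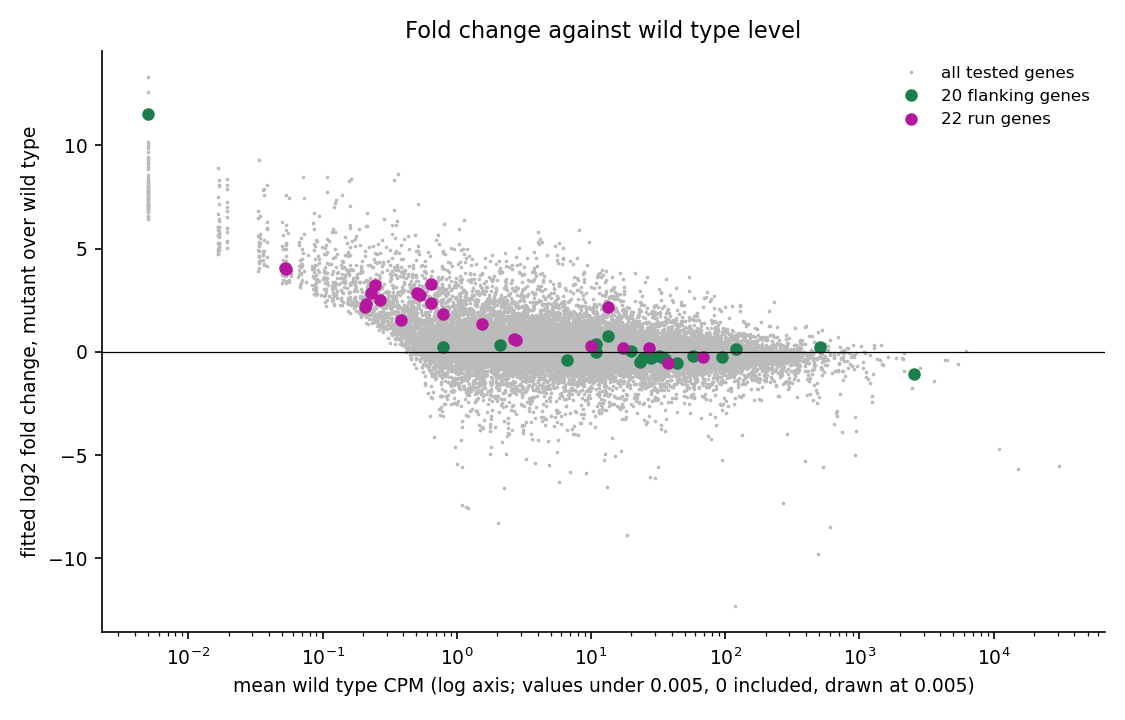
Fitted log2 fold change (mutant over wild type) against mean wild type CPM (log axis) for all 27382 tested genes (grey), the 22 run genes and the 20 flanking genes. At or below 0.788 CPM, 1477 of 2148 genes were called higher and 37 lower, and the 12 run genes that passed through the mutant only lie there; Potri.010G010500.v4.1 is the run gene at 13.5 CPM and a log2 fold change of 2.19.

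Rows that the filter left out also lie within the run. In the order of the file, 50 rows stand between the first and last run gene, and 28 of them (56%) were not tested, against 23.5% of all rows in the table. Of these 28 rows, 18 had no count in any library and 10 were counted. The 28 rows together held 5, 10 and 11 counts in wild type libraries against 44, 19 and 22 in mutant libraries. Scaled, this is a ratio of 3.14 (95% exact interval 2.00 to 5.08, counting error only), against 1.40 for all rows left out of the table. Taken by identifier number in place of file order, 24 rows were left out and the ratio was 1.37 (95% exact interval 0.98 to 1.93), so this value depends on which rows are taken to lie within the run.

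**Figure D5:**
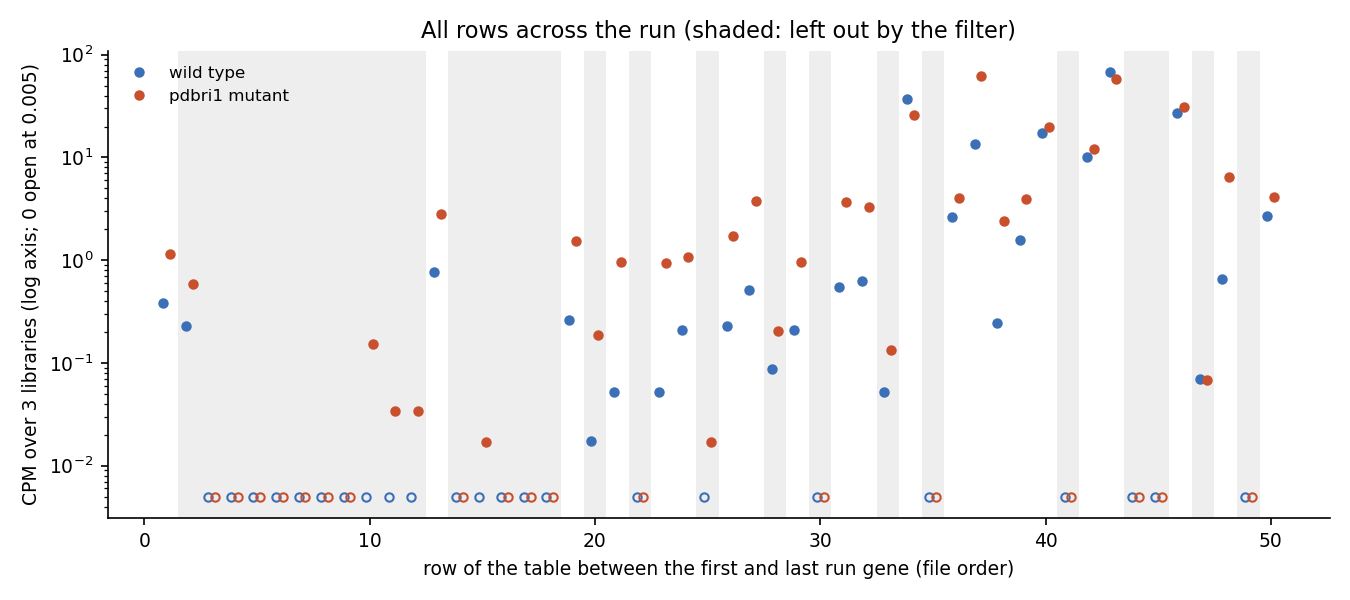
CPM over the 3 libraries of each genotype (log axis, 0 drawn open at the bottom) for all 50 table rows from the first to the last run gene in file order. Shaded rows are the 28 that the filter left out, of which 18 have no count; well counted rows with similar levels in both genotypes stand at the far end.

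The identifiers of the run also stand out, though expression chose the run and decided which of its rows were tested. Identifier numbers on the numbered chromosomes mostly advance by 100 from row to row, in 61.3% of 34469 neighbouring rows. Within the run by file order, 26 rows advanced by 11, and 23 such steps followed each other. Over all numbered chromosomes there were 35 steps of 11, so most were in this run, and the longest row of them elsewhere had 8. Of the 22 run genes, 12 (54.5%) had a number that is not a multiple of 100, against 0 of the 20 flanking genes, 7.66% of the 26462 tested genes on numbered chromosomes and 19.99% of the 1966 of these with low levels as defined above. At positions 56 to 66 it was 10 of 11. Only 3 of the 12 met the filter cutoff in all wild type libraries, so these shares are descriptions of genes admitted mostly through the mutant. How these numbers were assigned is not stated in these sources.

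Symbols and lengths also differed at positions 56 to 66, a group divided off after the values were seen. Of its 11 genes, 10 passed the filter through the mutant only, so these traits are descriptions. The table's symbol column was empty for 5 of the 22 run genes (22.7%), all at positions 56 to 66, where the share was 45.5%. It was empty for 7.34% of all tested genes, 19.4% of the low-level genes and 12.3% of the low-level genes on numbered chromosomes. Gene length, derived from counts and FPKM, had a median of 515 bp at positions 56 to 66, 1499 bp at positions 67 to 77, 1956 bp in the flanks and 1832 bp over all tested genes. Low-level genes had a median of 1442 bp, so positions 56 to 66 were short for their level. CPM makes no allowance for length. Per length, median wild type levels were 0.430 FPKM at positions 56 to 66, 8.61 FPKM at positions 67 to 77 and 0.253 FPKM in low-level genes.

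Scatter between libraries of a genotype was measured by a chi-square statistic per degree of freedom, whose median under counting error alone is 0.69. Over the 22 run genes its median was 0.861 for wild type and 1.46 for mutant libraries. Over all tested genes it was 1.08 and 1.31, and over the low-level genes 0.992 and 1.06. Within the run the highest value was 4.42, for Potri.010G007954.v4.1 in the mutant. Some flanking genes of higher counts gave larger values in both genotypes. These were 74.3 in the mutant and 10.8 in the wild type for Potri.010G012100.v4.1, and 18.3 and 14.5 for Potri.010G006800.v4.1. Potri.010G012400.v4.1, without wild type counts, gave 21.2 in the mutant. The mutant levels of Potri.010G012400.v4.1 were 23.8, 15.2 and 17.6 CPM.

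The order of genes changed little with the source of the order. In the order of rows in the file, the same 42 genes held positions 46 to 87 and the same 22 formed the run, while 9 run genes took another place within it. Potri.010G009750.v4.1 then came first. Compared with the segment of 109 tested genes on chromosome 8 that was lower in the mutant, the run was far less uniform. The quartiles of log2 fold change there were -1.27 and -0.70, an interquartile range of 0.57, against 2.25 in the run. This range was 0.64 at positions 56 to 66, 0.68 over all tested genes and 2.59 in the low-level genes. The median wild type level was 0.647 CPM in the run and 21.0 CPM in the segment, so the 2 differ in level too. Run and segment were chosen on the same contrast, and no test was made of their difference.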

How the data were processed

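The members, lists and comparisons were chosen with earlier results of these data known. Per the file headers, the table gives a raw count for each gene and library, and FPKM computed by the authors. Counts divided by FPKM and library total gave a whole gene length (within 0.01 bp) for 100% of 185484 values above 0. The aligner, counting tool, strand setting and genome build, and how reads matching several genes were treated, are not stated in these sources. All per-sample columns matched a sample title, and 0 were left unused.

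The counts of the 6 libraries entered edgeR 4.0.16 (R 4.3.3): filterByExpr (minimum count 10, minimum total 15), TMM factors (0.957 to 1.05), glmQLFit with robust=TRUE and glmQLFTest without a block, with Benjamini-Hochberg adjustment over 27382 genes. CPM are scaled by TMM factors. The test was tried on simulated counts first. P-values behind the calls measure the spread between pools, and the labels call these biological replicates. Replicate pairs differed beyond sampling noise (chi-square per gene 1.84 to 2.62), so each library was counted. Alternatives were library totals, RLE factors, no filter, DESeq2 1.42.0, limma 3.58.1 on log2(FPKM + 1) and log2(FPKM + 0.1), a replicate block, each library left out and, added after seeing the data, a filter on the wild type alone and the file order. Named genes were the 12 run genes of highest mean FPKM, run genes not called higher, the 2 genes on either side of each edge, flanking genes called with 2-fold changes and the 4 flanking genes of highest FPKM. No reference sequence was used.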

Additional observations from a re-analysis of the deposited data

How the results depend on the processing

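The count of genes called over the whole table, 17558, stayed within 1.5 times under each alternative, and it ran from 16605 to 17115 with a library left out. Run genes called higher numbered 20 with TMM factors, library totals, RLE factors, no filter and both limma fits, 17 with DESeq2, and 18 to 20 with a library left out. With a filter on the wild type libraries alone, added after seeing the data, 10 run genes were tested and 8 called higher, and the run median fell to 0.46 from 2.17, since that filter by construction removes the genes that passed through the mutant. The run median was 2.30 with library totals and 1.27 with limma on log2(FPKM + 1), where the pseudocount shrinks the changes of low genes. The flank median of -0.20 moved to -0.078 with library totals, -0.078 with limma on log2(FPKM + 1) and -0.079 with limma on log2(FPKM + 0.1), which left the median of all genes at 0.13, 0.10 and 0.13. With a library left out, the run median ran from 2.06 to 2.20 and the flank median from -0.22 to -0.16. Of 302 values of the 22 named genes under 14 alternatives, 281 kept their call and direction, 21 lost the call and 0 reversed; each loss was of a gene with a log2 fold change between -0.25 and 0.28. Genotypes share only replicate numbers: same-numbered deviations correlated at -0.018 to -0.0064, and 0 of 6 libraries had their own number as the best match. A replicate block gave 17334 called genes, 20 run genes and 5 flanking genes called higher, and run and flank medians of 2.16 and -0.20. At 17752822 to 21096052 counts per library, a gene at 0.052 CPM has about 1 count per library, which limits the precision of its ratio.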
